A study of Mus musculus with 36 samples.

Results

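Bone marrow-derived macrophages (BMDMs) carrying floxed Cop1 alleles were compared with wild-type BMDMs at T9, the fifth of 6 sampled times and the fourth after lipopolysaccharide (LPS). The comparison rests on 6 of the 36 libraries of the series, the 3 labelled Loxp_T9_LPS and the 3 labelled WT_T9_LPS, chosen by label alone. The 3 Loxp libraries came from mice with COP1-floxed alleles and Rosa26-CreERT2, and the 3 WT libraries from mice with COP1-wt alleles and the same Rosa26-CreERT2, each from a separate individual. Rosa26-CreERT2 is a ubiquitously expressed Cre recombinase that needs tamoxifen to enter the nucleus, and the series title calls the floxed cells Cop1-ko. Neither a tamoxifen treatment nor the unit of T9 is stated in the labels. All 6 cultures received 100 ng/ml LPS at day 7 of differentiation, and polyadenylated RNA was sequenced.

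Cop1, listed under its older symbol Rfwd2, is a ubiquitin ligase that marks transcription factors for destruction by the proteasome. Its described substrates are c-Jun, ETS factors such as Ets2 and Etv5 and, through Tribbles adaptor proteins, C/EBP factors. LPS is sensed by TLR4, and in macrophages it drives NF-κB, AP-1, C/EBP and interferon-regulated genes, including cytokines, chemokines, secreted proteases and feedback inhibitors.

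The 6 libraries held 31166871 to 39193567 counts, and 15685 genes passed the filter on low counts over all 36 libraries. Levels are given as CPM, a read count relative to the library's size, scaled by TMM, in the order replicate 1, 2 and 3. Fold changes are Cop1-floxed over wild type on the log2 scale, from edgeR's quasi-likelihood test on all 36 libraries, with p-values adjusted over all genes tested and a threshold of 0.05. Of the 6, 3 libraries stood apart from the others of their group. Cop1-floxed replicate 2 had counts for 15045 genes, against 17622 to 19693 genes in the other 35 libraries of the series, and 634 of its genes had 1 to 3 counts, against 2600 to 3235 genes elsewhere. In it 78 genes were at 0 that had at least 10 counts in each of the other 5 libraries, and the first principal component, with 55.0% of the variance at T9, separated it from the other 5. Cop1-floxed replicate 3 had 0.101% of its counts in ribosomal RNA rows, against 0.00430% to 0.00664% in the other 5 libraries. Wild-type replicate 2 had 89.8 CPM of Xist, against at most 0.176 CPM in the other 5, together with reads of Y-linked genes such as Ddx3y (24.8 CPM, against 36.3 to 51.3 CPM in the others).

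Cop1 itself was lower in the floxed cells at T9. The gene, on chromosome 1 from 159232156 to 159354872 in GRCm38, had 5.59, 6.49 and 6.97 CPM in Cop1-floxed libraries, against 14.0, 12.3 and 13.5 CPM in wild-type libraries. The groups did not overlap (log2 fold change -1.06 ± 0.12 (SE), adjusted p = 8.75e-07). Without Cop1-floxed replicate 2 the log2 fold change was -1.11 (adjusted p = 7.96e-06), and Cop1 was called in all 19 alternative settings. Reads remained in every floxed library, and counts per gene do not separate the floxed exons from the rest of the transcript.

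At T9 the floxed BMDMs had higher levels of a set of secreted myeloid products. The granulocyte growth factor Csf3, the monocyte chemokines Ccl2 and Ccl7, the iron-sequestering protein Lcn2, the proteases Mmp3 and Mmp8 and the anti-inflammatory cytokine Il10 all rose. The dendritic and T cell chemokine Ccl22, the interleukin 12 subunits Il12a and Il12b, 11 of 31 sterol and fatty acid synthesis genes and 14 of 19 stromal and endothelial markers fell. Without Cop1-floxed replicate 2 neither Il12a nor Il12b was called. In that fit 8 sterol and fatty acid synthesis genes and 10 stromal and endothelial markers were called lower. In all, 1639 genes (10.4% of those tested) passed, 929 higher (5.92%) and 710 lower (4.53%) in the floxed cells. Changes of at least 2-fold were mostly falls, with 80 such genes higher and 472 lower. The median log2 fold change of all genes tested was 0.02. A separate fit, limited to the 8357 genes with a mean of at least 5 CPM at T9, called 447 higher and 325 lower. Those are calls at any size of change, and how the 2-fold falls were spread over levels was not tested.

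**Figure D1:**
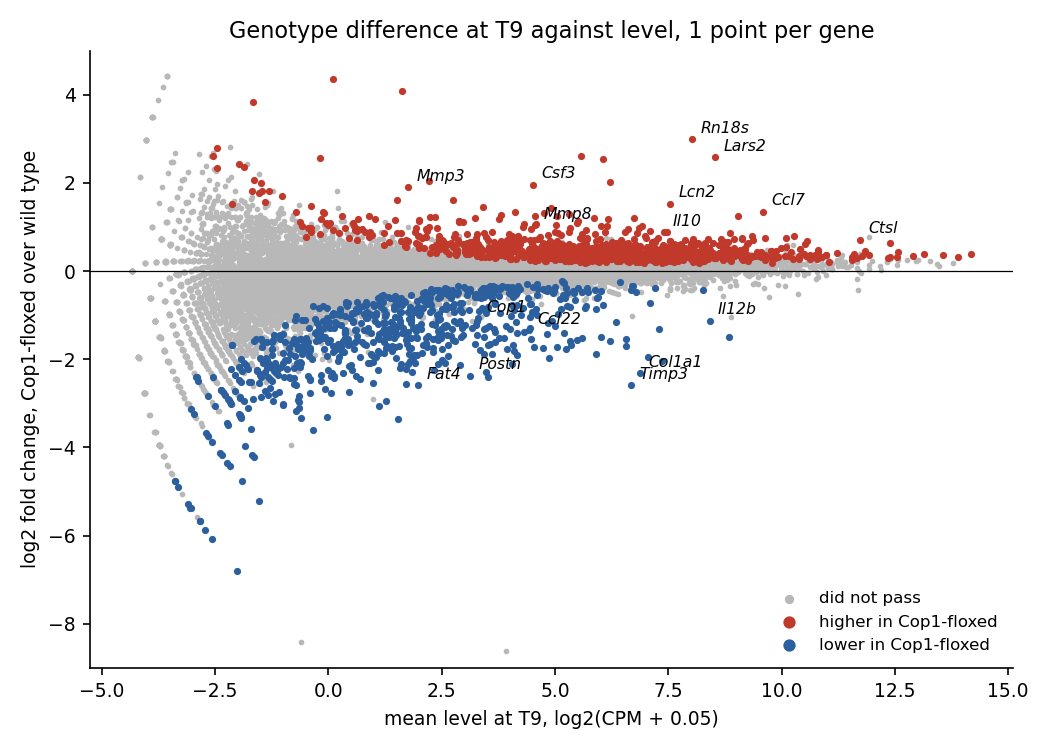
Log2 fold change of Cop1-floxed over wild type at T9 (y axis) against the mean level of both groups as log2(CPM + 0.05) (x axis), 1 point for each of the 15685 genes tested; red and blue points passed (929 higher, 710 lower) and grey points did not. The falls reach larger sizes than the rises, and matrix genes such as Timp3 and Col1a1 and the cytokine gene Csf3 are named on the plot.

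Leaving out Cop1-floxed replicate 2 left 789 genes (5.03%), 420 higher (2.68%) and 369 lower (2.35%). Of the 1639 genes 697 (42.5%) were called both ways, 382 higher and 315 lower, and they made up 88.3% of the 789; 0 of the 1639 changed sign. Of the 552 genes called with at least a 2-fold change, 279 were called both ways. Genes called both ways had a median absolute log2 fold change of 0.75 and genes called only with all libraries one of 0.52. By comparison, 1168 genes were called without Cop1-floxed replicate 1 and 1534 without Cop1-floxed replicate 3. The counts were 1368 without wild-type replicate 1, 683 without wild-type replicate 2 and 827 without wild-type replicate 3. Among the 710 lower genes, Cop1-floxed replicate 2 was the lowest of the 3 floxed libraries for 513. With libraries scaled by their totals in place of TMM, the median of all genes moved to -0.15 and the calls became 244 higher and 1451 lower, so small shifts in either direction depend on the scaling.

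**Figure D2:**
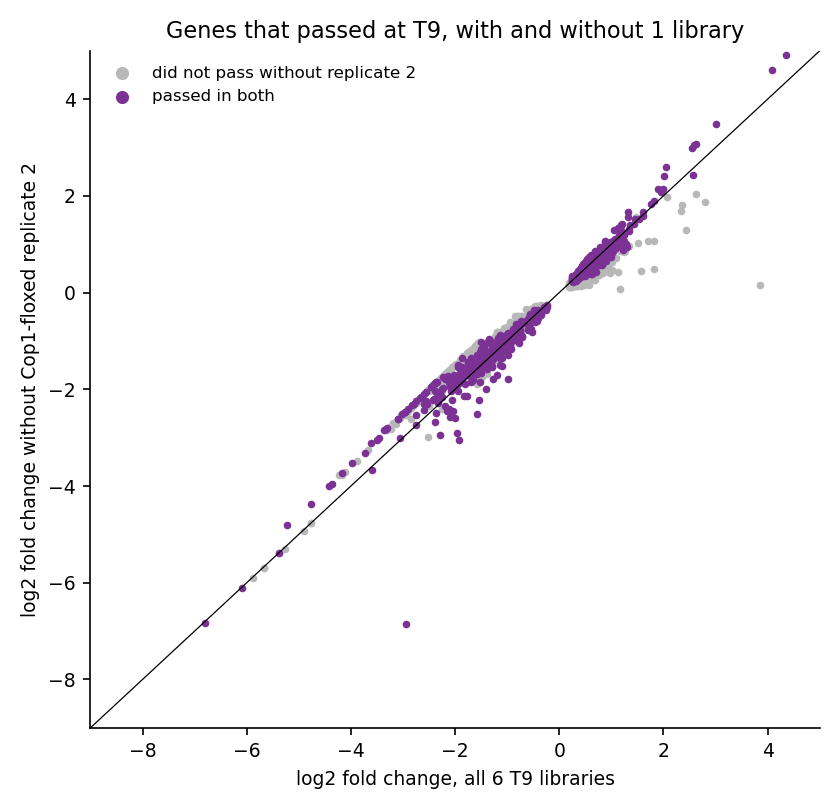
Log2 fold change of Cop1-floxed over wild type at T9 for the 1639 genes that passed, with all 6 libraries (x axis) and without Cop1-floxed replicate 2 (y axis), 1 point per gene, with the line of equality. The 697 purple genes passed both ways and the grey genes passed with all libraries alone, and all points keep their sign.

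The 15 largest rises, by the rule for named genes, held Csf3, Mmp3, Ifitm6, Lcn2, Sh2d3c, Prokr1, Ccl7, Trem1, Il19, Ptgir, Htr2b, Tnfrsf26 and Ccl2, beside Lars2 and Mir6236. The rule itself asks that floxed and wild-type libraries do not overlap, so this holds for all 15. It was met by 4169 genes (26.6% of those tested, 15.8% higher and 10.8% lower). Each of the first 13 was called without any 1 of the 6 libraries. Lars2 and Mir6236 rested on Cop1-floxed replicate 3. Lars2, a mitochondrial leucyl-tRNA synthetase, had 155, 131 and 1613 CPM in Cop1-floxed libraries, against 109.6, 97.3 and 108 CPM in wild-type libraries. Its log2 fold change of 2.59 (adjusted p = 0.00299) became 0.42 (adjusted p = 0.48) without that replicate, and that of Mir6236 moved to 0.47 (adjusted p = 0.56) from 2.55. The same library held 1255 CPM of the ribosomal RNA row Rn18s, against 48.9 to 85.4 CPM in the other 5, and their part in the Lars2 and Mir6236 values was not tested.

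Promoter sequence is shown for Lcn2, Mmp3 and Mmp8, 3 rising genes of secreted proteins, because described Cop1 substrates include AP-1 and C/EBP factors. Each run is the 250 bases before the RefSeq start in GRCm38.p6, on the gene's strand. Capitals mark matches to TGANTCA (AP-1) or TTGCNNAA (C/EBP), searched on both strands.
Lcn2, chr2:32387740-32387989, minus strand: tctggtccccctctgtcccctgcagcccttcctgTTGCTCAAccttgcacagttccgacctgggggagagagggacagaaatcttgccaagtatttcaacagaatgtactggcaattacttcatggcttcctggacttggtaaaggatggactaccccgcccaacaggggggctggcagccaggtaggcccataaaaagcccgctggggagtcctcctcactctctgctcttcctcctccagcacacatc
Mmp3, chr9:7445572-7445821, plus strand: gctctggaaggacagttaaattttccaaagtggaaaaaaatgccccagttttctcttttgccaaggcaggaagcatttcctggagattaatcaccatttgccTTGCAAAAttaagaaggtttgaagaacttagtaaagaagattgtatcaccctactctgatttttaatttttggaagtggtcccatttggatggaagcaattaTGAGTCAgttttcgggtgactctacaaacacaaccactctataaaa
Mmp8, chr9:7558179-7558428, plus strand: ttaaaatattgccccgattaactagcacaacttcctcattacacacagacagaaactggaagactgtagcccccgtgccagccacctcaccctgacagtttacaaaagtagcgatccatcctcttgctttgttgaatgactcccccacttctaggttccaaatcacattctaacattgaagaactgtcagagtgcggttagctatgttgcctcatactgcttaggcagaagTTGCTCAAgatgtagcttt
Lcn2 held TTGCTCAA at positions -216 to -209 from the start and Mmp8 the same letters at -19 to -12. Mmp3 held TTGCAAAA at -148 to -141 and TGAGTCA at -46 to -40, which matches on both strands. Of all 32851 such windows in the table, 6.75% held the AP-1 letters and 9.56% the C/EBP letters. A match describes these letters only. The 3 genes were picked by hand, so their matches are not a count to set beside these shares. No window was available for Csf3, Ccl2 and Ccl7. A part of these letters in the rises was not tested.

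Among the growth factors and cytokines, Csf3 had the largest change. The gene, which encodes granulocyte colony-stimulating factor and lies on chromosome 11 from 98700183 to 98703631, had 48.9, 28.0 and 32.3 CPM in Cop1-floxed libraries, against 8.10, 9.14 and 10.8 CPM in wild-type libraries. Every floxed library was above every wild-type library (log2 fold change 1.96 ± 0.21 (SE), adjusted p = 2.95e-07). Il10, which restrains inflammatory gene expression, had 264, 145 and 249 CPM in Cop1-floxed libraries, against 114, 123 and 121 CPM in wild-type libraries. Its lowest floxed value was that of replicate 2, without which the log2 fold change was 1.07 in place of 0.88 (adjusted p = 8.16e-05 and 0.000916). Il19, of the Il10 family, had 47.0, 21.9 and 46.4 CPM in Cop1-floxed libraries, against 8.25, 16.0 and 21.8 CPM in wild-type libraries (log2 fold change 1.32, adjusted p = 0.000822), and Osm, an Il6-family cytokine, was also higher (log2 fold change 0.76, adjusted p = 0.00402).

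Il12b, the shared subunit of interleukins 12 and 23, had 241, 167 and 236 CPM in Cop1-floxed libraries, against 495, 411 and 494 CPM in wild-type libraries. The groups were well apart (log2 fold change -1.12 ± 0.30 (SE), adjusted p = 0.0135), yet without Cop1-floxed replicate 2 the adjusted p was 0.0776 at a log2 fold change of -0.999. Il12a, the other subunit of interleukin 12, had 3.41, 0.777 and 2.22 CPM in Cop1-floxed libraries, against 5.14, 4.01 and 5.37 CPM in wild-type libraries (log2 fold change -1.17, adjusted p = 0.013), and its adjusted p without that replicate was 0.0794. Lif, an Il6-family cytokine, fell as well (log2 fold change -1.37), with an adjusted p of 0.084 without Cop1-floxed replicate 2 and 0.11 without wild-type replicate 2.

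Over the 25 inflammatory cytokines listed, 4 rose, 3 fell and 18 did not pass, with a median log2 fold change of 0.13. Among all genes tested 5.92% were called higher and 4.53% lower, the shares to set beside this and the later list counts. The 4 rises held without Cop1-floxed replicate 2, and the count of falls was then 0. Tnf (log2 fold change 0.15, adjusted p = 0.67), Il1b (-0.19, adjusted p = 0.752) and Il6 (-0.17, adjusted p = 0.712) did not pass. Their libraries overlapped, with Il6 at 308, 157 and 232 CPM in Cop1-floxed libraries, against 209.6, 306 and 269 CPM in wild-type libraries. Ifnb1, the interferon made first after TLR4 signalling, likewise did not pass (log2 fold change -0.13, adjusted p = 0.857), and of 38 interferon-stimulated genes only Isg20, an exonuclease, did (log2 fold change 0.48, adjusted p = 0.00466), with an adjusted p of 0.0501 without wild-type replicate 2. That list had a median log2 fold change of 0.15 with TMM and of -0.02 with library totals.

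Chemokines moved in both directions. Ccl2, which recruits monocytes through Ccr2, had 848, 746 and 630.2 CPM in Cop1-floxed libraries, against 302, 354 and 282 CPM in wild-type libraries (log2 fold change 1.25 ± 0.19 (SE), adjusted p = 5.54e-05). Ccl7, its neighbour in the same cluster on chromosome 11, had 1331, 977 and 1024 CPM in Cop1-floxed libraries, against 382, 491 and 431 CPM in wild-type libraries (log2 fold change 1.35 ± 0.21 (SE), adjusted p = 7.14e-05). For both genes the floxed and wild-type libraries did not overlap, and the fitted change between groups was more than 2-fold. Ccl6 was higher by a smaller amount (383, 383 and 388 CPM in floxed libraries and 224, 261 and 281 CPM in wild-type libraries, log2 fold change 0.59, adjusted p = 0.000677), and so were Ccl12 (log2 fold change 0.67, adjusted p = 0.0127) and Ccl3 (log2 fold change 0.61, adjusted p = 0.0301). Ccl12 lost its call without Cop1-floxed replicate 1 or wild-type replicate 3, and Ccl3 without Cop1-floxed replicate 1 or wild-type replicate 2 or 3.

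Ccl22, which attracts cells with Ccr4, went the other way, with 12.9, 12.04 and 11.4 CPM in Cop1-floxed libraries, against 29.5, 32.5 and 29.7 CPM in wild-type libraries (log2 fold change -1.34 ± 0.18 (SE), adjusted p = 1.26e-05). The 3 floxed values lay close to each other and far below the wild-type values. Cxcl5, a neutrophil chemokine, and Cx3cl1, fractalkine, also fell (log2 fold changes -1.92 and -1.13, adjusted p = 0.00638 and 0.0131), each at under 14 CPM in every library. Neither was called without wild-type replicate 2, and Cx3cl1 was not called without Cop1-floxed replicate 2 either. In all 5 of 22 chemokines rose, 3 fell and 14 did not pass, with a median of 0.15. The neutrophil chemokines Cxcl1 and Cxcl2 had log2 fold changes of 0.17 and 0.15 (adjusted p = 0.685 and 0.675).

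**Figure D3:**
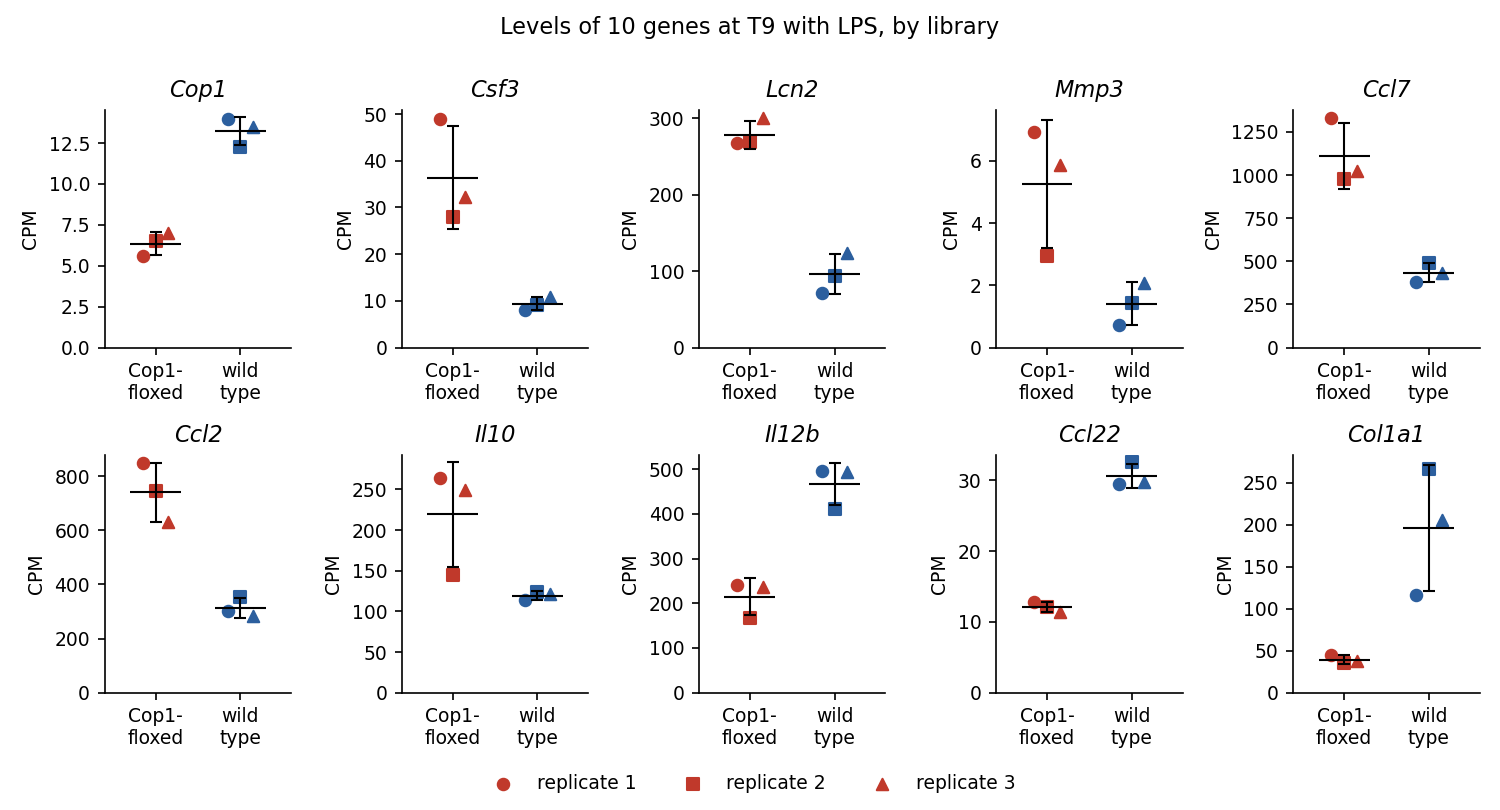
CPM of 10 genes at T9 in each Cop1-floxed library (left, red) and wild-type library (right, blue), with marker shapes for replicates 1, 2 and 3; black lines are the mean and bars the SD of 3 libraries, and every axis starts at 0. Floxed and wild-type libraries do not overlap in any of the 10 panels, with Cop1, Il12b, Ccl22 and Col1a1 lower and the other 6 genes higher in floxed libraries. For Csf3, Lcn2, Mmp3, Ccl7, Ccl2 and Col1a1 the rule that named them asks for this. Of all genes tested, 26.6% did not overlap.

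Secreted proteases and their regulators made up the next group. Mmp3, stromelysin-1, had 6.93, 2.95 and 5.88 CPM in Cop1-floxed libraries, against 0.710, 1.45 and 2.08 CPM in wild-type libraries (log2 fold change 1.90 ± 0.36 (SE), adjusted p = 0.000748). Mmp8, neutrophil collagenase, had 33.1, 28.5 and 33.6 CPM in Cop1-floxed libraries, against 14.5, 15.2 and 16.4 CPM in wild-type libraries (log2 fold change 1.05 ± 0.12 (SE), adjusted p = 8.25e-07), with little spread within either group. Adam8, a membrane metalloprotease, and Plaur, the urokinase receptor, rose too (log2 fold changes 0.80 and 0.73, adjusted p = 1.47e-05 and 0.000902), each called without any 1 library. Plat, tissue plasminogen activator, fell at 1.13 to 1.83 CPM in floxed libraries and 2.07 to 3.68 CPM in wild-type libraries (log2 fold change -1.02, adjusted p = 0.0036). Of the 30 genes of this list 6 rose, 3 fell, Plat and Timp3 among them, and 21 did not pass, with a median of 0.00. Mmp13 and Mmp12 were the other 2 rises (0.64 and 0.46) and were not called in 3 and 5 of the 6 fits that left out 1 library.

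Of the 28 listed C/EBP genes and reported targets 7 rose, where 5.92% of all genes tested were called higher. Lcn2, lipocalin-2, on chromosome 2 from 32384637 to 32387739, had 267, 268 and 299.5 CPM in Cop1-floxed libraries, against 71.5, 93.4 and 124 CPM in wild-type libraries (log2 fold change 1.53 ± 0.20 (SE), adjusted p = 9.05e-06). Slpi, a leukocyte protease inhibitor, had 94.0, 88.4 and 60.9 CPM in Cop1-floxed libraries, against 33.9, 36.3 and 35.8 CPM in wild-type libraries (log2 fold change 1.20 ± 0.19 (SE), adjusted p = 7.78e-05). Ltf, lactoferrin, an iron-binding granule protein, had 9.32, 10.02 and 10.9 CPM in Cop1-floxed libraries, against 5.03, 4.77 and 4.06 CPM in wild-type libraries (log2 fold change 1.13, adjusted p = 0.000338). Csf3r, the receptor for the product of Csf3, was higher by 0.64 (adjusted p = 0.00113). Together with Csf3, Il10 and Il1rn these made 7 rises and 0 falls among the 28 listed genes, with a median of 0.39. Without Cop1-floxed replicate 2 there were 7 rises and 1 fall, that of Cebpa, and 6 of the 7 rises held whichever library was left out, the exception being Il1rn. This list was written from general knowledge, with earlier results of these libraries known.

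The C/EBP transcripts themselves did not pass at T9 with all libraries. Cebpb had 714, 830.4 and 609.8 CPM in Cop1-floxed libraries, against 532, 536 and 579 CPM in wild-type libraries, with no overlap (log2 fold change 0.39, adjusted p = 0.0655). Cebpd had a log2 fold change of 0.40 (adjusted p = 0.0944). Cebpa had 14.8, 29.1 and 18.1 CPM in Cop1-floxed libraries, against 27.9, 21.0 and 22.8 CPM in wild-type libraries, where Cop1-floxed replicate 2 was the highest of the 6 (log2 fold change -0.21, adjusted p = 0.477). Without it the other floxed libraries lay below all wild-type libraries, and Cebpa passed as lower (log2 fold change -0.56, adjusted p = 0.0285).

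The transcript of Jun, the best known Cop1 substrate, was higher in the floxed cells. It had 68.9, 53.6 and 58.2 CPM in Cop1-floxed libraries, against 41.4, 41.1 and 42.3 CPM in wild-type libraries (log2 fold change 0.53 ± 0.12 (SE), adjusted p = 0.00527). The groups did not overlap, and the adjusted p was 0.0113 without Cop1-floxed replicate 2, 0.067 without Cop1-floxed replicate 1 and 0.085 with library totals. Fos, its immediate early partner, was lower, at 52.5, 44.6 and 51.0 CPM in Cop1-floxed libraries, against 57.5, 89.9 and 74.0 CPM in wild-type libraries (log2 fold change -0.58 ± 0.13 (SE), adjusted p = 0.00299), with an adjusted p of 0.058 without wild-type replicate 2. Atf3, a stress-induced AP-1 relative, was higher by 0.45 (adjusted p = 0.00527), and lost the call without Cop1-floxed replicate 2 (adjusted p = 0.0522) and without wild-type replicate 2. The remaining 12 of 15 AP-1 genes did not pass.

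Ets2 and Etv5, ETS substrates, had log2 fold changes of 0.20 and -0.10 (adjusted p = 0.253 and 0.78). Ets1 was the single ETS gene called lower (3.27, 1.71 and 2.78 CPM in floxed libraries and 2.81, 5.99 and 5.69 CPM in wild-type libraries, log2 fold change -0.89, adjusted p = 0.0215), and Elk1, Elk3 and Fli1 were called higher by 0.44, 0.35 and 0.48. All 4 calls among the 18 tested ETS genes were lost without Cop1-floxed replicate 2, where 0 were called (edgeR's quasi-likelihood test). Among the ligase parts, Det1 (-0.05), Ddb1 (-0.06), Cul4a (0.07) and Dda1 (0.11) did not pass, with adjusted p of 0.851, 0.64, 0.744 and 0.506. Trib1, the Tribbles adaptor for C/EBP proteins, had 53.1, 55.8 and 51.0 CPM in Cop1-floxed libraries, against 36.2, 34.4 and 40.6 CPM in wild-type libraries (log2 fold change 0.52, adjusted p = 0.0086), with an adjusted p of 0.0669 without Cop1-floxed replicate 2 and 0.083 without wild-type replicate 2. Trib2 was called lower at under 1 CPM in every library (log2 fold change -2.65, adjusted p = 0.0072).

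Several inhibitors of inflammatory signalling were higher. Pdlim2, which promotes turnover of the NF-κB subunit p65, had 43.6, 49.8 and 38.6 CPM in Cop1-floxed libraries, against 24.5, 20.2 and 18.9 CPM in wild-type libraries (log2 fold change 1.05 ± 0.15 (SE), adjusted p = 4.23e-05). Zc3h12a, the ribonuclease regnase-1, was higher by 0.45 (adjusted p = 0.00063) and Tnip1, a partner of A20, by 0.43 (adjusted p = 0.00382). These 3 were called without any 1 library. Of 25 such genes 8 rose, beside 5.92% of all genes tested, and 17 did not pass, with a median of 0.33. The other 5 rises were Bcl3, Zfp36, Dusp16, Il1rn and Dusp5. The count was 6 without Cop1-floxed replicate 2, 3 without Cop1-floxed replicate 1 or wild-type replicate 1 (with 1 fall without the second of these), 4 without wild-type replicate 2 or 3, and 3 with library totals, where 1 gene fell.

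Among receptors, Trem1, which amplifies TLR signals, had 24.6, 24.5 and 25.4 CPM in Cop1-floxed libraries, against 5.97, 10.6 and 12.99 CPM in wild-type libraries (log2 fold change 1.33 ± 0.23 (SE), adjusted p = 0.000324). Ptgir, the prostacyclin receptor, had 48.1, 80.2 and 41.9 CPM in Cop1-floxed libraries, against 27.2, 19.3 and 22.5 CPM in wild-type libraries (log2 fold change 1.30, adjusted p = 0.000363), with its highest value in Cop1-floxed replicate 2. Prokr1, a prokineticin receptor, had 43.9, 42.8 and 45.7 CPM in Cop1-floxed libraries, against 15.6, 14.7 and 18.9 CPM in wild-type libraries (log2 fold change 1.43 ± 0.22 (SE), adjusted p = 8.4e-05), and Htr2b, a serotonin receptor, 15.4, 25.9 and 18.0 CPM in Cop1-floxed libraries, against 12.03, 6.94 and 5.51 CPM in wild-type libraries (log2 fold change 1.27, adjusted p = 0.00168). Tnfrsf26, a decoy receptor of the TNF receptor family, had 43.5, 49.2 and 47.5 CPM in Cop1-floxed libraries, against 20.1, 19.6 and 19.3 CPM in wild-type libraries (log2 fold change 1.25 ± 0.13 (SE), adjusted p = 1.71e-07). Cd300lf, an inhibitory myeloid receptor, was higher by 1.14 (adjusted p = 0.000227). Each of these 6 kept its call without any 1 library. Sh2d3c, a signalling adaptor, had 17.6, 13.6 and 15.4 CPM in Cop1-floxed libraries, against 6.50, 6.02 and 4.39 CPM in wild-type libraries (log2 fold change 1.46 ± 0.14 (SE), adjusted p = 8.5e-08), and Ifitm6, an interferon-induced transmembrane family member, 10.5, 9.94 and 9.58 CPM in Cop1-floxed libraries, against 2.04, 4.04 and 3.74 CPM in wild-type libraries (log2 fold change 1.62 ± 0.23 (SE), adjusted p = 2.69e-05).

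On the list of 31 sterol and fatty acid synthesis genes there were 11 falls, and 20 genes did not pass, with a median of -0.46. Fasn, fatty acid synthase, had 7.53, 3.18 and 7.36 CPM in Cop1-floxed libraries, against 12.6, 13.7 and 13.7 CPM in wild-type libraries (log2 fold change -1.14 ± 0.17 (SE), adjusted p = 3.71e-05), with its lowest value in Cop1-floxed replicate 2. Hmgcs1, Sqle, Cyp51, Hsd17b7 and Stard4 fell by 0.48 to 0.89 on the log2 scale, and like Fasn they kept their calls without any 1 library. Msmo1, Scd1, Scd2 and Mvd also fell, and each lost its call in at least 1 such fit. The count was 8 without Cop1-floxed replicate 2, 8 without wild-type replicate 2, and 20 with library totals. Plin2, which coats lipid droplets, rose, at 1400, 1406 and 1316 CPM in Cop1-floxed libraries, against 857, 794 and 803 CPM in wild-type libraries (log2 fold change 0.75 ± 0.08 (SE), adjusted p = 5.34e-07), and was the single call among 10 LXR target and cholesterol efflux genes.

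Of 30 lysosomal genes 14 rose with TMM and 1 with library totals, and under TMM 16 did not pass, with a median of 0.24. Ctsl, cathepsin L, had 4178, 4514 and 3984 CPM in Cop1-floxed libraries, against 2772, 2550 and 2395 CPM in wild-type libraries (log2 fold change 0.72 ± 0.08 (SE), adjusted p = 1.05e-06) and was called without any 1 library and with library totals. The other 13 rises, among them Ctsb, Ctsd, Ctss and Grn, had log2 fold changes of 0.22 to 0.40. The count was 7 without Cop1-floxed replicate 1 or 2, 9 without Cop1-floxed replicate 3, 2 without wild-type replicate 2, 3 without wild-type replicate 3, and 1, Ctsl, with library totals, where the median was 0.07. Apart from Ctsl, no lysosomal gene held its call under all of these fits.

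Of 30 cell cycle genes 7 fell, 1 rose and 22 did not pass, with a median of -0.49. Top2a, topoisomerase IIα, had 3.38, 4.08 and 4.58 CPM in Cop1-floxed libraries, against 5.53, 8.58 and 7.77 CPM in wild-type libraries (log2 fold change -0.86, adjusted p = 0.00375) and was the one called without any 1 library. Mki67 had 33.2, 20.1 and 27.2 CPM in Cop1-floxed libraries, against 44.6, 38.4 and 42.5 CPM in wild-type libraries (log2 fold change -0.64, adjusted p = 0.0205, and 0.114 without Cop1-floxed replicate 2). The rise was that of Ccnd1, cyclin D1 (log2 fold change 0.53, adjusted p = 0.0296), which kept its call without wild-type replicate 2 and lost it in the other 5 such fits. The counts were 2 falls without Cop1-floxed replicate 2, 3 without wild-type replicate 2 and 2 without wild-type replicate 3. Summed over the list, the level was 687, 567 and 634 CPM in floxed libraries, against 652, 717 and 615 CPM in wild-type libraries, and the groups overlapped.

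**Figure D4:**
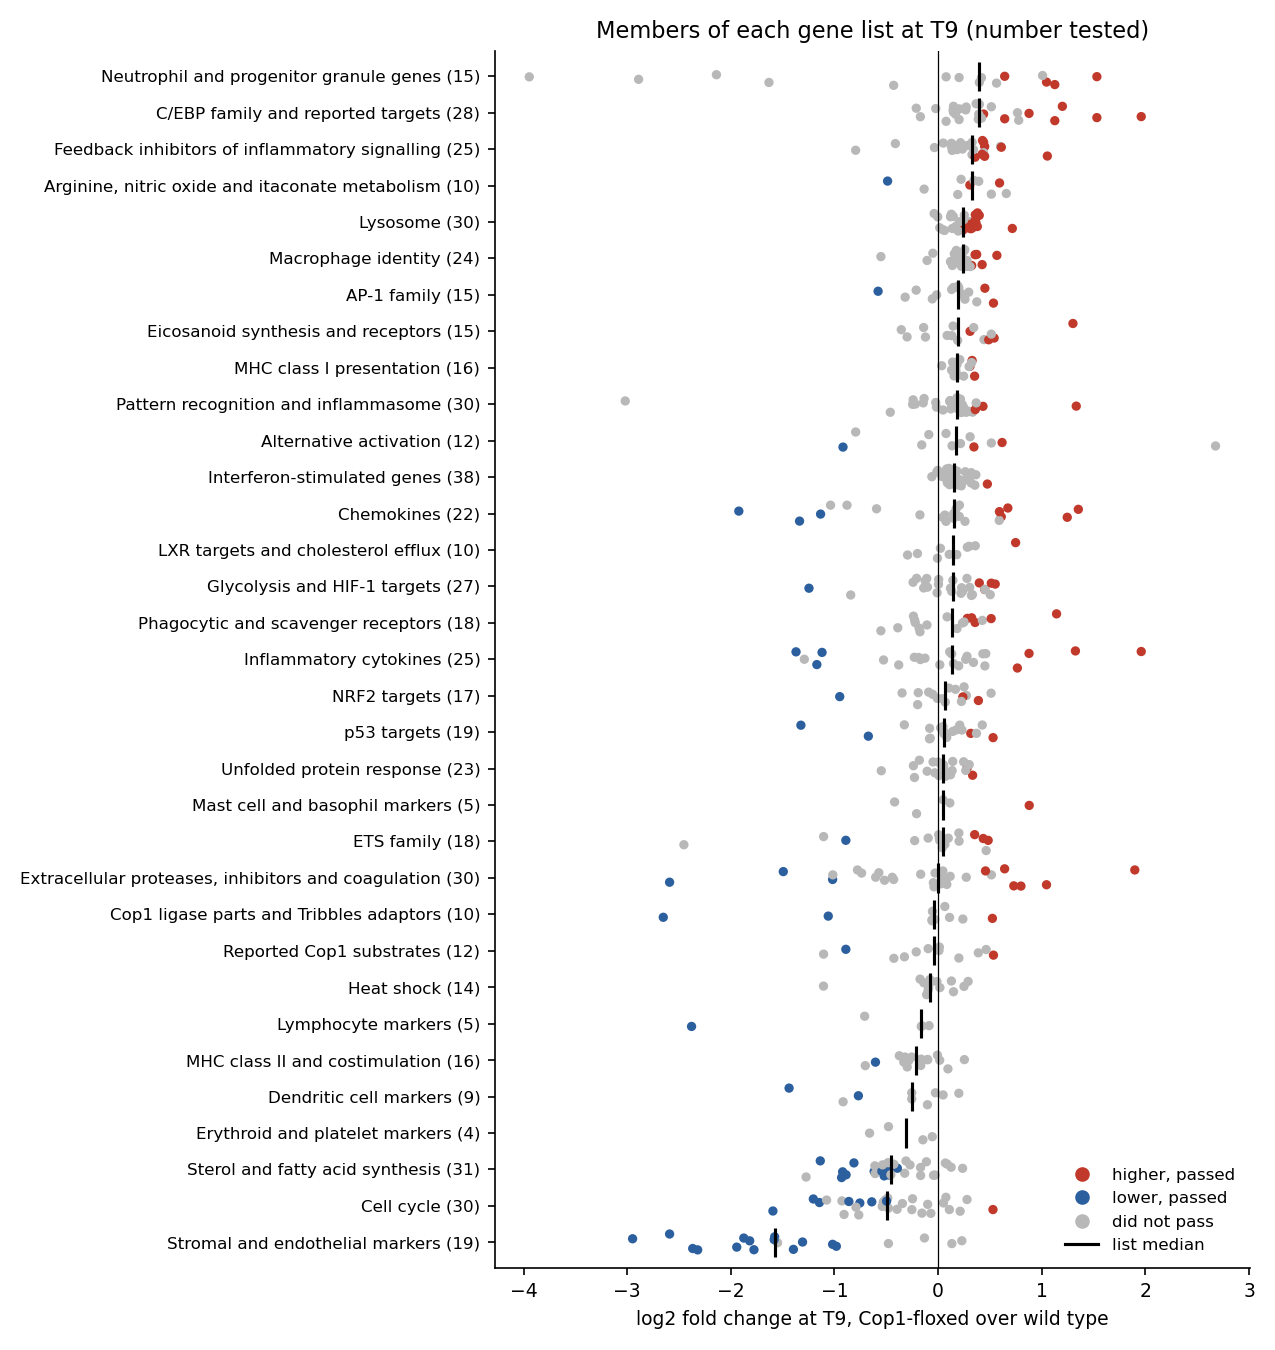
Log2 fold change of Cop1-floxed over wild type at T9 for the tested members of 33 gene lists (y axis, number tested in brackets), 1 point per gene, red where higher and passed, blue where lower and passed, grey where not passed; black ticks are list medians and points are spread vertically for visibility only. Stromal and endothelial markers lie lowest (median -1.58), then cell cycle (-0.49) and sterol and fatty acid synthesis (-0.46), and most other list medians lie between -0.4 and 0.4.

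Matrix and stromal genes stood among the largest falls. The 15 largest falls included Col2a1, Timp3, Fat4, Wisp1, Thbs2, Postn, Col1a1, Has2, Lrrc32, Dkk3, Actg2, Vgll3 and Hspg2, which are mostly genes of matrix proteins, their regulators and smooth muscle. Col1a1, a chain of type I collagen, had 44.9, 34.8 and 37.9 CPM in Cop1-floxed libraries, against 117, 266 and 205 CPM in wild-type libraries (log2 fold change -2.32 ± 0.39 (SE), adjusted p = 0.000214). Timp3, a matrix-bound protease inhibitor, had 35.6, 19.8 and 31.7 CPM in Cop1-floxed libraries, against 85.8, 247 and 193 CPM in wild-type libraries (log2 fold change -2.59 ± 0.43 (SE), adjusted p = 0.000188). Postn, periostin, had 3.20, 3.18 and 2.08 CPM in Cop1-floxed libraries, against 10.1, 16.8 and 16.7 CPM in wild-type libraries (log2 fold change -2.37 ± 0.28 (SE), adjusted p = 1.67e-06). In each case wild-type replicate 1 was the lowest wild-type library. That it lay above all floxed libraries was fixed by the rule for the 15 largest falls, which asks for no overlap. Thbs2, thrombospondin-2, had 4.85, 2.25 and 3.84 CPM in Cop1-floxed libraries, against 9.49, 25.9 and 22.9 CPM in wild-type libraries (log2 fold change -2.40, adjusted p = 0.000182), and Hspg2, perlecan, 9.14, 3.92 and 5.70 CPM in Cop1-floxed libraries, against 22.8, 28.3 and 29.6 CPM in wild-type libraries (log2 fold change -2.10, adjusted p = 1.73e-05). Col2a1, cartilage collagen, was at 0.668, 0 and 0.810 CPM in floxed libraries, against 1.27, 6.38 and 8.01 CPM in wild-type libraries. Dkk3, a secreted Wnt-related protein, lost its call without Cop1-floxed replicate 2 (adjusted p = 0.0754) and without wild-type replicate 2 (adjusted p = 0.09), and the others named here kept theirs.

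Of the 19 stromal and endothelial markers tested, 14 fell and 5 did not pass, with a median of -1.58; the count was 10 without Cop1-floxed replicate 2 and 10 without wild-type replicate 2, with medians of -1.44 and -1.40. Summed over the 20 listed genes the level was 458, 359 and 396 CPM in floxed libraries, against 802, 1494 and 1244 CPM in wild-type libraries. The marker sums did not overlap, and none of the 20 genes was at 0 in all 3 libraries of a group. The 5 that did not pass were Dcn, Lum and the endothelial genes Pecam1, Cdh5 and Kdr, with log2 fold changes of -0.48, -1.55, 0.13, 0.23 and -0.13. In these bulk cultures fewer stromal cells and less of these RNAs per cell cannot be told apart, and the part of this difference in the values of other genes, such as Lif, Vegfa or Cxcl5, was not tested.

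Defining macrophage genes were high in both groups. Csf1r, the receptor for the macrophage growth factor, had 2185, 2376 and 2101 CPM in Cop1-floxed libraries, against 1996, 1962 and 1969 CPM in wild-type libraries. Cd68, an endosomal glycoprotein of macrophages, had 1513, 1405 and 1507 CPM in Cop1-floxed libraries, against 1267, 1220 and 1143 CPM in wild-type libraries. Of 24 macrophage genes 6 rose, Lyz2, Itgam, Msr1, Cd68 and Fcgr1 among them (by 0.29 to 0.42), and 18 did not pass; 2 were called without Cop1-floxed replicate 2 or wild-type replicate 2, and 0 rose with library totals. Of 15 neutrophil and progenitor granule genes 4 rose, Mmp8, Lcn2, Ltf and Csf3r, all held without any 1 library, and 11 did not pass. Among these were Camp, Ngp, Mmp9 and S100a8 (log2 fold changes 0.08, 0.40, -0.43 and 0.42, adjusted p = 0.874, 0.206, 0.199 and 0.133). The primary granule gene Mpo, myeloperoxidase, had 0.281, 0.311 and 0.775 CPM in Cop1-floxed libraries, against 7.92, 1.68 and 0.623 CPM in wild-type libraries, and Elane, neutrophil elastase, had 0.105, 0 and 0.0704 CPM in Cop1-floxed libraries, against 2.31, 0.559 and 0.0593 CPM in wild-type libraries. Both were highest in wild-type replicate 1, and neither passed (log2 fold changes -2.89 and -3.94, adjusted p = 0.161 and 0.101). Ly6g had at most 1 count in any of the 6 libraries and did not pass the filter.

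Most markers of other cells did not pass or were under the filter on low counts. The dendritic cell genes Fscn1 and Zbtb46 were called lower among 9 tested (-0.77 and -1.44), and neither was called without Cop1-floxed replicate 2. The lymphocyte list had 5 of 13 genes over the filter, with Ebf1, a B cell factor also present in stromal cells, lower (log2 fold change -2.38, adjusted p = 0.000843). The T cell marker Cd3e had at most 2 counts in each library. Of 4 erythroid and platelet genes tested 0 passed with edgeR, DESeq2, limma on log2 RPKM or limma-voom, and 0 had an unadjusted p under 0.05; Gata2 was the one call among 5 mast cell and basophil genes, at under 4 CPM, and lost it in 5 of the 6 fits without 1 library.

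Other lists held scattered calls, to be read beside the 5.92% called higher and 4.53% called lower over all genes tested. Of 30 pattern recognition and inflammasome genes 4 rose (Trem1, Clec4d, Ticam1 and Nod2), and 2 of them without Cop1-floxed replicate 2; with library totals 1 rose and 5 fell. Of 15 eicosanoid genes 4 rose, led by Ptgir, with Ptges2, Alox5ap and Tbxas1, of which Ptgir and Ptges2 were called without Cop1-floxed replicate 2. Of 27 glycolysis and HIF-1 targets 4 rose (Hk1, Slc2a1, Slc16a3 and Pfkfb3), of which Pfkfb3 alone was called without Cop1-floxed replicate 2. The count was also 1 with any 1 wild-type library left out, but Pfkfb3 was then not called. That call was Hk1 without wild-type replicate 1 or 2 and Slc2a1 without wild-type replicate 3. On the same list Vegfa fell (log2 fold change -1.25, adjusted p = 0.00407, and 0.0563 without wild-type replicate 2). Of 18 phagocytic and scavenger receptors 5 rose, led by Cd300lf and Fcgr3, and 2, these same genes, were called without Cop1-floxed replicate 2. The count was also 2 without Cop1-floxed replicate 1 or wild-type replicate 1 or 2, and 3 in the other such fits, and Cd300lf was the one called in all 6. Of 16 MHC class I genes 3 rose (H2-Q4, H2-D1 and H2-K1, by at most 0.35), of which 0 were called without Cop1-floxed replicate 2, and the class II and costimulation list had 1 fall, of Icosl, the ligand of the T cell costimulator Icos (28.8, 30.4 and 29.0 CPM in Cop1-floxed libraries, against 55.4, 40.4 and 38.3 CPM in wild-type libraries, log2 fold change -0.60, adjusted p = 0.00189).

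Nqo1, a quinone reductase and NRF2 target, fell (7.21, 8.47 and 7.15 CPM in Cop1-floxed libraries, against 12.8, 15.7 and 15.5 CPM in wild-type libraries, log2 fold change -0.95 ± 0.22 (SE), adjusted p = 0.00534), called without any 1 library, while Fth1 and G6pdx of the same 17-gene list rose by 0.39 and 0.24. Without Cop1-floxed replicate 2 neither was called (adjusted p = 0.09 and 0.426), and Gclc and Srxn1 joined Nqo1 as lower (-0.74 and -0.60, adjusted p = 0.0161 and 0.0248). In arginine and nitric oxide metabolism Gch1 and Arg2 rose (0.31 and 0.59) and the transporter Slc7a1 fell (-0.49). Without Cop1-floxed replicate 2 Gch1 was not called (adjusted p = 0.106). Arg2 (adjusted p = 0.0498 with all libraries) lost its call in 4 of the 6 fits without 1 library. No gene of this list was called in all 6. Nos2 and Arg1 did not pass (log2 fold changes 0.39 and 0.51, adjusted p = 0.483 and 0.502). Ptgs2, cyclooxygenase-2, did not pass either (0.14, adjusted p = 0.728). Over all genes tested 5.92% were called higher and 4.53% lower. Among 19 p53 targets Plk3 and Mdm2 rose and Phlda3 and Pmaip1 fell, and 0 of the 4 were called without Cop1-floxed replicate 2. Of 23 unfolded protein response genes 2, Hspa5 and Xbp1, rose by 0.28 and 0.33, with 0 called without Cop1-floxed replicate 1 or wild-type replicate 1. Il4ra and Stab1 rose and Clec10a fell among 12 alternative activation genes, of which Il4ra was called without Cop1-floxed replicate 2, and 0 of the list were called in all 6 fits without 1 library. With library totals 0 genes rose on the glycolysis, MHC class I, NRF2, arginine, p53, unfolded protein response and alternative activation lists, 1 on the phagocytic list and 2 on the eicosanoid list. Of 14 heat shock genes 0 passed with edgeR, DESeq2, limma on log2 RPKM or limma-voom, with 2 at an unadjusted p under 0.05, and of 8 tested mitochondrially encoded genes 0 passed, also with 2.

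Some calls appeared only when Cop1-floxed replicate 2 was left out. With at least 5 CPM in the higher group, the 5 with the largest change were Treml4, Edn1, Slc45a3, Kif2a and Egr2. Kif2a, a kinesin, had 5.98, 14.6 and 7.15 CPM in Cop1-floxed libraries, against 12.2, 10.5 and 12.1 CPM in wild-type libraries, and passed at -0.85 without replicate 2 (adjusted p = 0.000318), in place of -0.33 (adjusted p = 0.283). Egr2, an immediate early factor, had 4.78, 10.3 and 4.40 CPM in Cop1-floxed libraries, against 9.08, 7.10 and 8.09 CPM in wild-type libraries and moved in the same way (-0.85 in place of -0.32). For Edn1, endothelin-1, with 140.4, 65.5 and 128 CPM in Cop1-floxed libraries, against 68.3, 65.5 and 75.8 CPM in wild-type libraries, replicate 2 was level with the lowest wild-type library. Among genes with at least 5 CPM in the higher group, the 5 largest changes that lost the call were Dkk3, Loxl1, Tnfrsf11b, Col6a1 and Ak1, all lower in floxed cells by 1.75 to 2.24 on the log2 scale.

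Whether the genotype difference was particular to T9 was tested against the mean of the differences at T2.5, T4, T6 and T13. With all libraries 3 of 15685 genes (0.0191%) passed, all with a larger log2 difference at T9, and 1238 genes had an unadjusted p under 0.05. They were Rab11fip5, a Rab11 effector of endosomal recycling, Pdgfa, a platelet-derived growth factor chain, and Bcl2l1, which encodes the survival protein Bcl-xL. Rab11fip5 had 149.9, 169 and 165 CPM in Cop1-floxed libraries, against 101, 91.1 and 88.3 CPM in wild-type libraries, Pdgfa 18.3, 12.2 and 17.1 CPM in Cop1-floxed libraries, against 8.93, 9.83 and 6.97 CPM in wild-type libraries, and Bcl2l1 122, 135 and 107 CPM in Cop1-floxed libraries, against 70.6, 60.4 and 64.5 CPM in wild-type libraries. All 3 were higher in floxed cells at T9, without overlap (log2 fold changes 0.79, 0.89 and 0.90). The excess over the other LPS times was 0.57 ± 0.08, 0.91 ± 0.16 and 0.71 ± 0.12 (SE) on the log2 scale, with adjusted p = 0.00173, 0.0156 and 0.0156. Without Cop1-floxed replicate 2 the adjusted p was 0.00955, 0.00196 and 0.063, and 14 genes (0.0893%) passed.

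The same mice were sampled at every time, so the individual was also put in the model as a block, and 38 genes (0.242%) then passed, 32 with a larger and 6 with a smaller log2 difference at T9. Csf3 (excess 1.06, adjusted p = 0.0275) and Sema4c, a semaphorin (1.12, adjusted p = 0.00106), were among them, as was Lcn2 (0.81, adjusted p = 0.0465). Without the block the excess was 1.07 for Csf3 (adjusted p = 0.0780) and 1.11 for Sema4c (adjusted p = 0.065). With the block and without Cop1-floxed replicate 2, 11 genes passed. Without the block, leaving out 1 T9 library gave 1 to 14 genes. Rn18s, Rpph1, Rn7sk, Lars2 and Mir6236 also met the size rule for this comparison, with the values of Cop1-floxed replicate 3 as given above for Rn18s and Lars2, and did not pass with all libraries. Without Cop1-floxed replicate 2, Rn18s, Rpph1, Lars2 and Rn7sk were among the 14 genes that passed (adjusted p = 0.00955 to 0.0412).

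**Figure D5:**
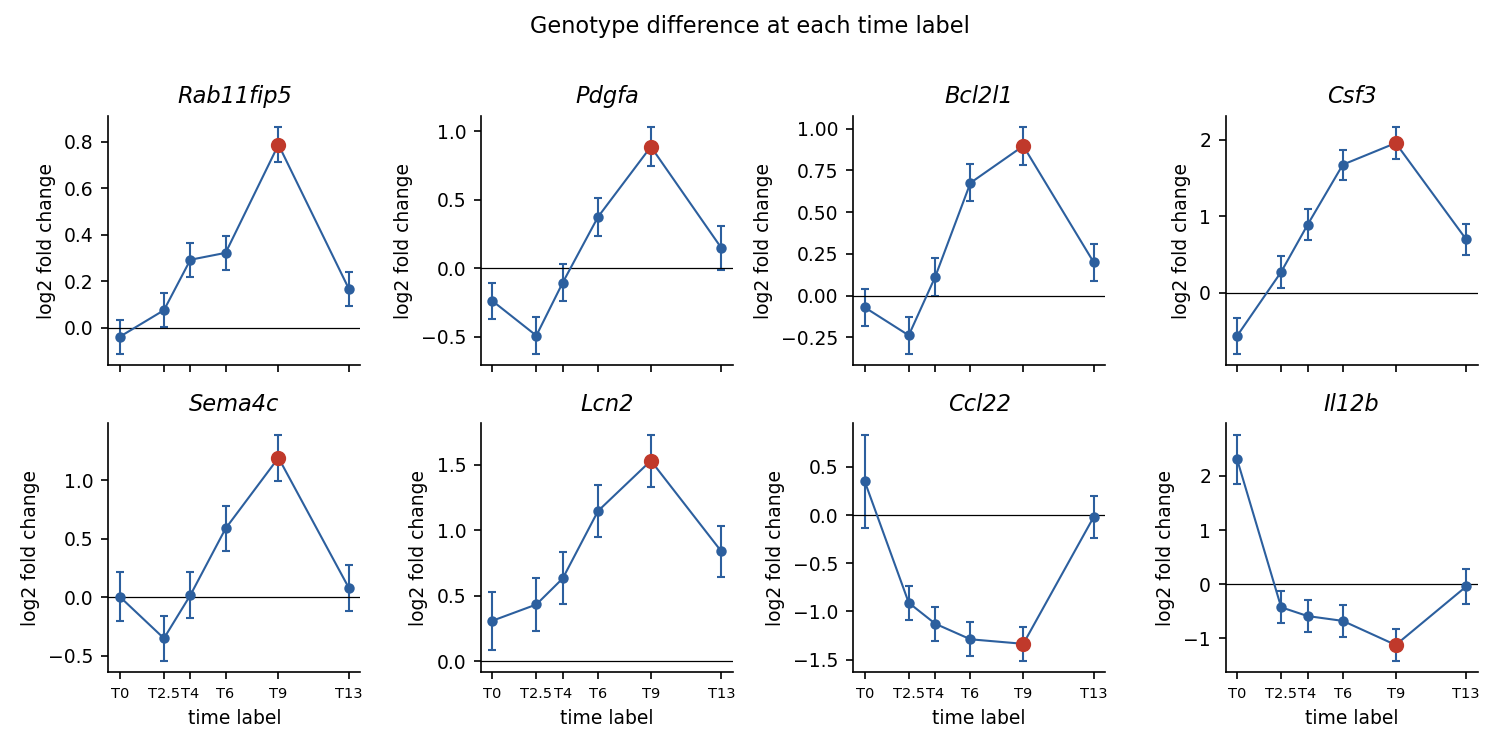
Log2 fold change of Cop1-floxed over wild type (y axis, with SE) at each time label (x axis, to scale) for 8 genes, with T9 in red and n = 3 libraries per genotype at each time. Rab11fip5, Pdgfa, Bcl2l1, Csf3, Sema4c and Lcn2 have their highest value at T9, and Ccl22 and Il12b their lowest.

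The difference of Csf3 was 0.27, 0.89, 1.68, 1.96 and 0.70 on the log2 scale over the LPS times in order, and that of Lcn2 was 0.43, 0.63, 1.15, 1.53 and 0.84. Both were highest at T9. Ccl22 had -0.91, -1.13, -1.29, -1.34 and -0.02 over the same times. Not every named gene had its largest difference at T9. Ccl2 and Ccl7 had log2 fold changes of 1.53 and 1.51 at untreated T0, against 1.25 and 1.35 at T9. Trem1 had 1.74 at T13, against 1.33 at T9, and Col1a1 had -2.41 at T0, against -2.32 at T9. Against T13 alone, 5 genes (0.0319%) passed, Rab11fip5, Lmo2, LOC100038947, Iffo2 and Irf2bpl, named after their values were seen, and 49 passed (0.312%) with the individual as a block, Ccl22 (difference -1.31, adjusted p = 0.00955) and Csf3 (1.24, adjusted p = 0.0265) among them. Without Cop1-floxed replicate 2 and without the block 0 passed with edgeR's quasi-likelihood test, with 977 at an unadjusted p under 0.05. Against T6, 0 genes passed with or without the block or that library, with 587 at an unadjusted p under 0.05 without the block. By time, the count of genes that passed between genotypes was 1501 (9.57%), 612 (3.9%), 763 (4.86%), 1224 (7.8%), 1639 (10.4%) and 486 (3.1%) for the 6 times in order, with T9 the fifth.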

How the data were processed

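RNA-seq read counts per gene, deposited by the authors for all 36 libraries, are raw counts, and the RPKM values in the authors' deposited tables are normalised per gene length and library. The same deposited tables hold gene annotation columns of other kinds (identifiers and the like), which carry no measurement. Reads were mapped to GRCm38, and GSNAP is the aligner named, per the submitters' processing notes; strand handling is not given in the sources used here.

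Counts were fitted with edgeR 4.0.16 (R 4.3.3; filterByExpr, TMM, glmQLFit and glmQLFTest) over all 12 groups, which share 1 estimate of the spread, with 15685 genes tested and Benjamini-Hochberg adjustment over all of them at 0.05. CPM values are TMM-scaled. Each SE was derived from the test, as the absolute log2 value over the square root of its F statistic. Alternatives used DESeq2 1.42.0, limma 3.58.1 (on log2(RPKM + 1) and with voom), other scalings and filters, and fits without single libraries. The code was tested on simulated data.

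Named genes were Cop1; the 15 largest rises and 15 largest falls among called genes whose groups did not overlap and whose higher group averaged 5 CPM or more; up to 4 genes of each list by adjusted p; a set of 16 inflammatory, AP-1, ETS, C/EBP and Tribbles genes; the 5 largest changes that lost and the 5 that gained the call without Cop1-floxed replicate 2, at 5 CPM or more in the higher group; and up to 8 genes for the difference from the other times. Other list members are named to complete a count, after their values were seen. Some genes that the rule names are not reported here. The comparison, its gene lists and its tests were chosen with earlier results of these data known. Per the labels, the 3 mice of a genotype were sampled at every time, so the individual pairs libraries across times; deviations at T9 correlated with those of the same mouse at other times by 0.0378 to 0.135 in Cop1-floxed and 0.0728 to 0.462 in wild-type libraries. Replicates are separate individuals per the labels.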

Additional observations from a re-analysis of the deposited data

Results flagged for a closer look

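For 3 genes the genotype difference at T9 differed from the mean of the differences at the other LPS times, by a contrast in edgeR's quasi-likelihood test over all genes. The excess was 0.5738 for Rab11fip5, 0.9069 for Pdgfa and 0.7099 for Bcl2l1 on the log2 scale, each larger in the Cop1-floxed over wild-type direction at T9. With the individual as a block all 3 passed as well (adjusted p = 0.00106, 0.000532 and 0.0162), and without Cop1-floxed replicate 2 Bcl2l1 did not (adjusted p = 0.063).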

How the results depend on the processing

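The 1639 calls became 561 (243 higher, 318 lower) with the 6 T9 libraries alone, 772 of 8357 genes with a mean of at least 5 CPM, and 683 to 1534 when 1 library was left out. Replicate numbers do not pair the genotypes: correlations of same-numbered libraries were -0.080, -0.116 and 0.064, and each Cop1-floxed library correlated best with a wild-type library of another number. The replicate block gave 1823 calls over all libraries and 150 with the T9 libraries alone. Alternatives chosen after seeing the data were fits without Cop1-floxed replicates 2 and 3, which left 252 calls (192 higher, 60 lower) and 1 fall among the stromal markers, and without wild-type replicate 2 at every time, with 1244. In the first of these the lone floxed library is assumed to vary like the other groups.

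The share of calls that were higher was 56.7%, against 14.4% with library totals, 43.3% with the T9 libraries alone, 70.3% with quality weights, 46.1% without Cop1-floxed replicate 1 and 43.5% without wild-type replicate 1. Calls for the excess over the other LPS times were 3, with 38 under the individual as a replicate block, 11 under that block without Cop1-floxed replicate 2 and 1 to 14 with 1 library left out. Against T13 there were 5, with 49 under the block and 0 without Cop1-floxed replicate 2. Rn7sk reversed to -0.21 with limma-voom and a within-individual correlation, to -1.27 without Cop1-floxed replicate 3 and to -0.39 without replicates 2 and 3, where Rpph1 reversed to -0.48; the cause was not tested. With 1 library left out, Rpph1 ranged from 0.04 to 4.62 and Rn7sk from -1.27 to 2.59. Of 3356 values for 179 named genes, 2786 kept direction and side of the threshold, 507 lost the call, 59 gained it and 4 reversed. Of the 120 named genes called, 26 were called in every alternative. Depth limits genes of a few counts, above all in Cop1-floxed replicate 2.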
